A study of Mus musculus with 10 samples.

Results

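The calcium handling genes of the distal tubule examined here are Calb1, S100g, Pvalb, Trpv5, Trpv6, Atp2b1, Atp2b4 and Casr, which are 8 of the 39273 genes in the deposited table. They were chosen by name, as a set to be read beside Calb1, which had itself been picked for its measured high level in CD organoids; its levels in CD organoids are therefore given as a description, with no test. RNA-seq libraries of mouse kidney epithelium were compared, with 2 libraries in each of 5 groups. UB (ureteric bud) organoids were branching cultures of embryonic UB, kept in the medium mUBCM for 5, 10 or 20 days. CD (collecting duct) organoids were made from UB organoids of day 10 in the differentiation medium CDDM, which holds FGF9, Y27632, DAPT, PD0325901, aldosterone and vasopressin. Adult mCD cells were sorted from kidneys of 2-month-old mice for the Hoxb7-Venus reporter.

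The labels give all 10 libraries the strain C57BL/6 x Swiss Webster, the age embryonic day 11 and the genotype Wnt11-RFP +/-, a reporter of UB tip cells. The source names of the 4 libraries of days 5 and 10 give E11.5 instead, and those of the later libraries give no embryonic day. For the adult mCD libraries the age and genotype labels go against the series' design text and the study's methods, which name the adult Hoxb7-Venus mice, and the latter are followed here. Hoxb7-Venus labels the UB and the CD that forms from it. The labels do not say whether the 2 libraries of a group came from separate cultures or animals, and the p-values then measure only the spread between these libraries, which may be technical.

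Calcium is reabsorbed through the cells of the late distal convoluted tubule and the connecting tubule in 3 steps. It enters at the apical membrane through the channels Trpv5 and Trpv6, is carried and buffered in the cytosol by the EF-hand proteins calbindin-D28k (Calb1), calbindin-D9k (S100g) and, in the early distal convoluted tubule, parvalbumin (Pvalb), and leaves at the basolateral side through the plasma membrane calcium pumps Atp2b1 and Atp2b4 and the sodium-calcium exchanger Slc8a1. Vitamin D and parathyroid hormone are known to raise several of these genes, and the calcium-sensing receptor Casr, best known in the kidney for the thick ascending limb, senses extracellular calcium. The question was whether the rest of this set followed the high Calb1 of CD organoids.

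S100g and Trpv6, which were called higher in CD organoids with 256 or more counts in each library, are textbook targets of the vitamin D receptor, which binds repeats of AGGTCA and its variants. The 250 bases before their annotated starts are shown from RefSeq on GRCm38.p6, read 5′ to 3′ on the strand of the gene, with each AGGTCA on either strand in capitals (TGACCT where it lies on the other strand).
S100g (chrX:162964600-162964849, minus strand): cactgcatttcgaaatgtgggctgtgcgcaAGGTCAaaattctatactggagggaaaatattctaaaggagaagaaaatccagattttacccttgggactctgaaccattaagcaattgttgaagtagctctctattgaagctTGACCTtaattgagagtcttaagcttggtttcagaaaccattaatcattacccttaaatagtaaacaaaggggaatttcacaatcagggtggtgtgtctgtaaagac
Trpv6 (chr6:41636406-41636655, minus strand): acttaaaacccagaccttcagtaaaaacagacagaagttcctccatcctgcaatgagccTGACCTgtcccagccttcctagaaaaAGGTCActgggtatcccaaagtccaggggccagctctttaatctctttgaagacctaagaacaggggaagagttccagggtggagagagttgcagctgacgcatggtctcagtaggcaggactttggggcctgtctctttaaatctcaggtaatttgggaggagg
Each window held 2 matches, at 220 and 107 bases before the start in S100g and at 191 and 165 bases in Trpv6. In both genes the 2 matches lay on opposite strands, so that they were not repeats in the same direction. Among 32851 RefSeq windows of the same length, 14% held at least 1 match and 1.36% held 2 or more. The same search was made in the windows of 7 of the 8 genes, and the other 5 held no AGGTCA; a match of 6 letters is a description and not a binding site.

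The depth was 11913613 to 24536676 counts a library. A limit of detection of 3 counts was used, which is 0.109 to 0.241 CPM (read counts brought to a common library total with TMM factors) and covers counting error only. CD organoids carried markers of both CD cell classes, with the summed level of those of principal cells far below adult mCD. The summed level of 9 principal cell markers was 1497 and 1336 CPM in CD organoids against 140 to 210 CPM at day 10. In adult mCD it was 12978 and 12493 CPM. The members differed, with mean Scnn1b at 326 CPM in CD organoids against 857 CPM in adult mCD and Fxyd4 at 198 against 544 CPM. Aqp3 was at 21.3 against 1920 CPM. Avpr2 had no count in CD organoids, but also at most 4 counts in any library of the other groups. The summed level of 8 intercalated cell markers was 2076 and 1983 CPM against 0.674 and 0.948 CPM at day 10, and 2896 and 3000 CPM in adult mCD. These members differed too. Mean Foxi1 was 490 CPM in CD organoids against 169 CPM in adult mCD, and Atp6v0d2 273 against 265 CPM. The rest had lower means than in adult mCD, among them Slc4a1 (2.51 against 538 CPM) and Slc26a4 (50.1 against 298 CPM). The 8 markers of the connecting tubule summed to 1677 and 1736 CPM in CD organoids and to 6683 and 6861 CPM in adult mCD. The largest part of the CD organoid sum was Calb1 itself, the gene picked for its high level, with a mean of 841 CPM. Slc8a1, Scnn1b and Scnn1g had means of 352, 326 and 124 CPM there. Klk1, Trpv5, S100g and Hsd11b2 had means of 0.508, 1.49, 23.0 and 38.7 CPM. The adult mCD libraries carried RNA of other segments too. Their 7 markers of the thick ascending limb summed to 3664 and 3872 CPM, their 8 markers of the proximal tubule to 3976 and 4709 CPM and their 5 endothelial markers to 588 and 585 CPM, whereas the same lists summed to 10.8 and 13.8 CPM, 18.8 and 21.01 CPM, and 1.85 and 2.25 CPM in CD organoids, with 7 and 6 of 7, 4 and 5 of 8, and 3 and 4 of 5 markers above 3 counts. The 7 markers of the distal convoluted tubule summed to 3011 and 3170 CPM in adult mCD and to 561 and 512 CPM in CD organoids, where Slc8a1 made up 374 and 329 CPM of it. The second day 20 library stood apart from the first in such transcripts, with 7 against 1 of the 8 intercalated cell markers above 3 counts and 5.29 against 2.06 CPM of the thick ascending limb list. From day 10 to CD organoids the 6 UB tip markers went from 2569 and 2902 CPM to 130 and 129 CPM. The 6 stroma markers went from 24.7 and 19.2 CPM to 257 and 127 CPM. This rise lay in the collagens and Pdgfra, while mean Pdgfrb went from 4.64 to 2.48 CPM and Foxd1 was at or under 3 counts. The 5 leukocyte markers went from 6.30 and 7.88 CPM to 52.0 and 46.1 CPM. Here mean Ptprc went from 3.67 to 40.6 CPM and Cd68 from 3.06 to 8.43 CPM. Lyz2, Itgam and Cd3e had at most 1 count in a CD organoid library. Some of the genes examined here stand in these lists (Casr for the thick ascending limb, Pvalb for the distal convoluted tubule, and Trpv5, Calb1 and S100g for the connecting tubule). In bulk libraries, fewer cells that express a gene and less RNA per cell cannot be told apart.

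**Figure D1:**
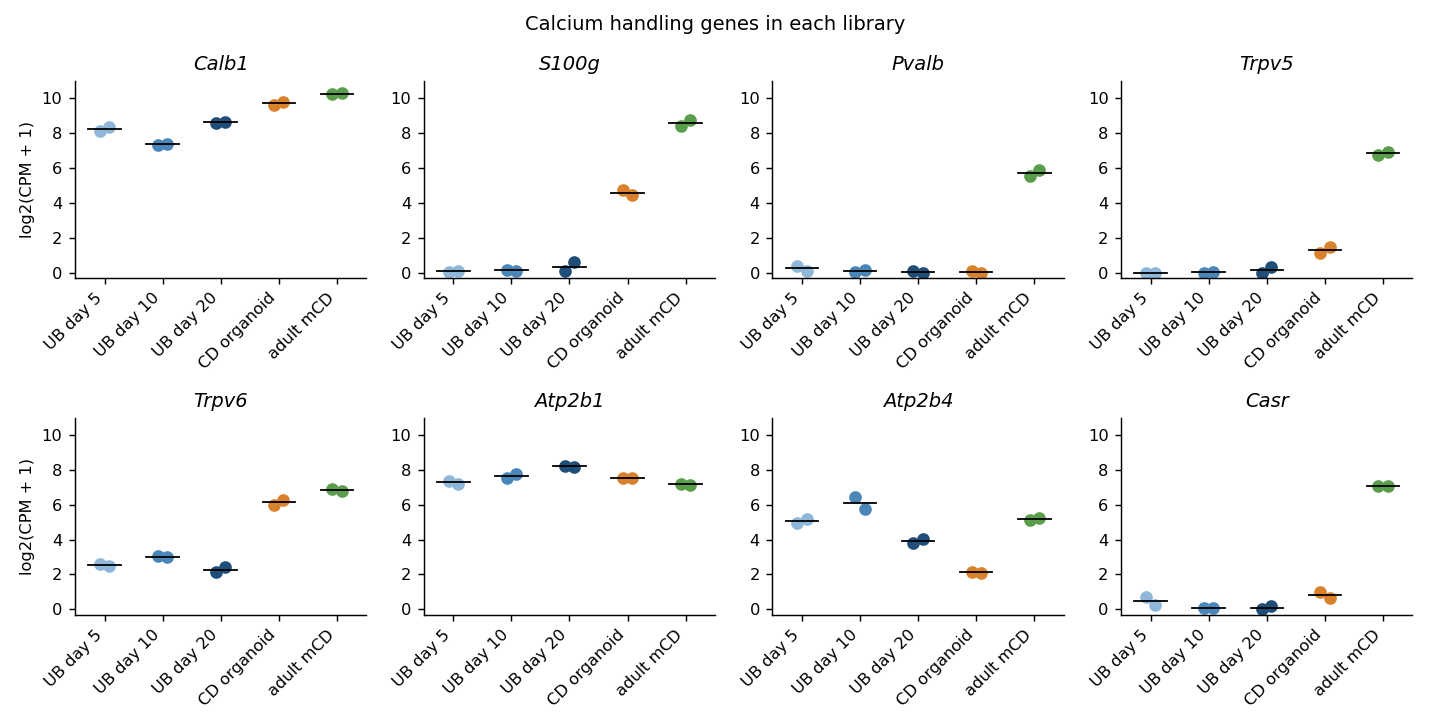
Level of each of the 8 genes, as log2(CPM + 1), in the 10 libraries; each point is a library and the line is the mean of the 2 libraries of a group. Calb1 and Trpv6 in CD organoids lie close under the adult mCD points, S100g lies between the UB organoids and adult mCD, and Trpv5, Casr and Pvalb lie near the bottom of the scale in all organoids.

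Compared with UB organoids of day 10, from which they were made, CD organoids had higher Trpv6, S100g, Trpv5 and Casr and lower Atp2b4. These were 5 of the 7 genes tested, which counted as called where the adjusted p was no higher than 0.01 with a fold above 4. The background over all 24410 genes was 10.7% called, with 4.96% higher in CD organoids and 5.71% lower. Atp2b1 did not pass, and Pvalb was at or under 3 counts in both groups. The same 5 genes were called in the same directions against UB organoids of day 20, where 9.46% of all genes were called, 4.74% higher and 4.72% lower. Both comparisons share the CD organoid libraries. Compared with adult mCD, CD organoids had lower S100g, Trpv5, Casr, Pvalb and Atp2b4, again 5 of 7, where 14.3% of all genes were called and 9.84% were called lower, while Trpv6 and Atp2b1 differed by less than 4-fold. The mean CPM in CD organoids as a share of the adult mean was 126% for Atp2b1, 68.0% for Calb1, 60.8% for Trpv6, 9.57% for Atp2b4, 5.86% for S100g, 1.29% for Trpv5, 0.577% for Casr and 0.0683% for Pvalb.

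**Figure D2:**
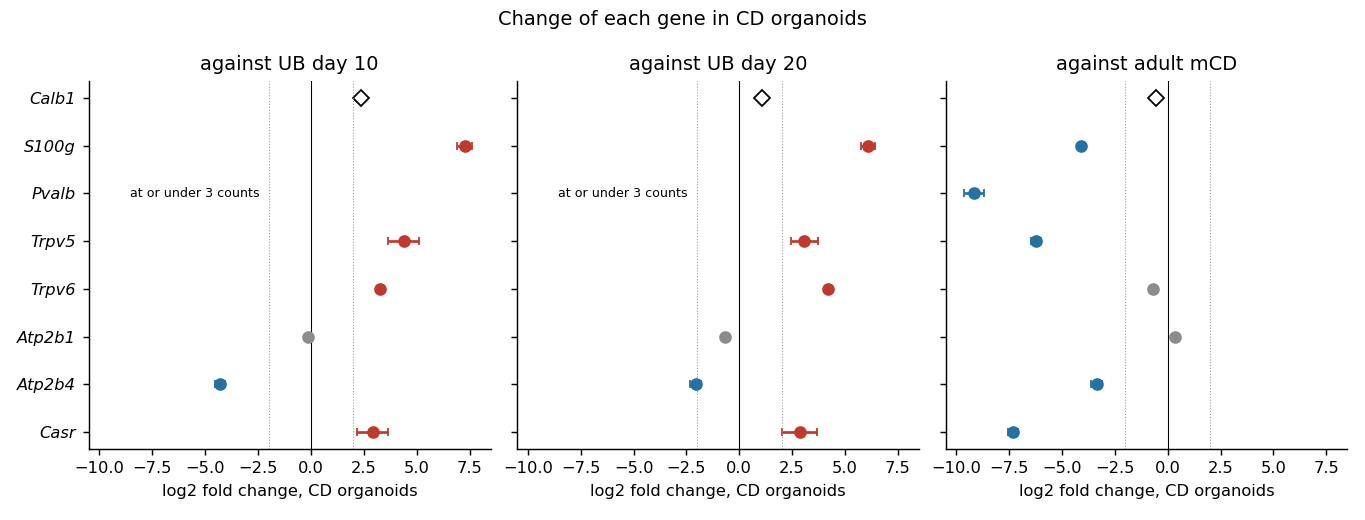
Log2 fold change of CD organoids against each of 3 groups, with bars for the standard error; red and blue points were called higher and lower, grey points were not called, and the open diamonds give Calb1, which was not tested. Dotted lines mark a 4-fold change; in both comparisons with UB organoids 4 tested genes lie to the right and Atp2b4 to the left, Calb1 lies to the right over day 10 (2.35), and against adult mCD no gene is called higher.

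Of the 3 cytosolic buffers in the set, Calb1 had the highest level per length in CD organoids. Its level was 284 and 325 CPM at day 5, 163 and 168 CPM at day 10 and 388 and 407 CPM at day 20 of UB culture, 799.9 and 883 CPM in CD organoids, and 1198 and 1276 CPM in adult mCD. The 5 groups thus followed the order day 10, day 5, day 20, CD organoid and adult mCD, and no group overlapped its neighbour. The mean in CD organoids was 5.09-fold that of day 10 and 2.12-fold that of day 20 as fitted. Within UB culture the gene moved by less than 4-fold, with log2 fold changes of -0.88 between days 5 and 10 (SE 0.08, edgeR quasi-likelihood test, adjusted p = 4.88e-06) and of 1.27 between days 10 and 20 (SE 0.08, adjusted p = 2.56e-07). Adult mCD exceeded day 10 by a log2 fold change of 2.90 (SE 0.09, adjusted p = 5.49e-12) and day 20 by 1.64 (SE 0.09, adjusted p = 1.18e-09), the latter under 4-fold. UB organoids thus already held Calb1 transcripts, whereas S100g and Pvalb had 8 counts or fewer in each UB library.

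S100g, the small calbindin of the same cells and of intestine, was nearly undetected in UB organoids and clearly present in CD organoids. The UB libraries held 1 and 2 counts (day 5), 3 and 2 counts (day 10) and 1 and 8 counts (day 20), against 357 and 256 counts in CD organoids and 4552 and 5605 in adult mCD. In CPM these last were 25.4 and 20.5 in CD organoids and 343 and 441 in adult mCD. The 3 UB groups overlapped each other, and CD organoids lay above all of them and below adult mCD. The ratio of CD organoids to day 10 was 243, with a 95% counting interval of 104 to 752 (exact binomial), and the log2 fold change was 7.27 (SE 0.35, edgeR, adjusted p = 5.67e-10). Against adult mCD it was lower by 17.0-fold (log2 fold change -4.09, SE 0.16, adjusted p = 1.14e-10). The second day 20 library held 8 of the 9 S100g counts of its group, and without it the log2 fold change of CD organoids over day 20 was 7.66 in place of 6.09.

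The order of both calbindins differed between CD organoids and adult mCD. Counted per kilobase of merged exons, S100g stood at 2.89 and 3.49 times Calb1 in the 2 adult mCD libraries, whereas in CD organoids Calb1 stood at 3.12 and 4.26 times S100g. On the same scale, in RPKM, the group means were 816 for S100g and 255 for Calb1 in adult mCD, and 47.9 and 174 in CD organoids. With the deposited lengths the ratios of Calb1 to S100g in CD organoids were 2.68 and 3.66, so that the order was the same on both scales.

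Pvalb, the buffer of the early distal convoluted tubule, was not above the limit of detection in CD organoids. It had 1 and 0 counts there, 0 to 3 counts in the libraries of days 10 and 20, 7 and 2 counts at day 5, and 605 and 746 counts (45.6 and 58.6 CPM) in adult mCD. The ratio of adult mCD to CD organoids was 1378, with a counting interval of 247 to 54473, and the difference was called (log2 fold change -9.15, SE 0.46, edgeR, adjusted p = 5.27e-10). Without the first CD organoid library, which held the 1 count, the log2 fold change was -9.95. Slc12a3, the defining transporter of the distal convoluted tubule, was at 398 and 434 CPM in adult mCD and at 0.285 and 1.44 CPM (4 and 18 counts) in CD organoids; the part of such cells in the difference was not tested.

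The 2 entry channels, encoded side by side on chromosome 6 with 15767 bases between them, behaved differently. Trpv6 was at 5.17 and 4.49 CPM at day 5, 7.30 and 6.93 CPM at day 10 and 3.34 and 4.30 CPM at day 20. CD organoids had 63.0 and 76.8 CPM and adult mCD 119.9 and 109.8 CPM. The order was day 20, day 5, day 10, CD organoid and adult mCD, and no neighbours overlapped. CD organoids exceeded day 10 by 9.76-fold (log2 fold change 3.29, SE 0.13, edgeR, adjusted p = 1.41e-10) and day 20 by 18.1-fold (log2 fold change 4.18, SE 0.15, adjusted p = 9.11e-11). Against adult mCD the log2 fold change was -0.72 (SE 0.11, adjusted p = 7.56e-05), which is under 4-fold. Within UB culture Trpv6 changed by less than 2-fold, with log2 fold changes of 0.55 (day 10 over day 5, adjusted p = 0.00973) and -0.89 (day 20 over day 10, adjusted p = 0.00106).

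Trpv5, the main calcium channel of this segment in the adult kidney, had 17 and 22 counts in CD organoids, which is 1.21 and 1.76 CPM. No count was seen at day 5, 0 and 1 count at day 10 and 0 and 4 counts at day 20, and adult mCD had 1442 and 1556 counts, or 108.7 and 122 CPM. The gene was thus called higher in CD organoids than at day 10 (log2 fold change 4.38, SE 0.75, edgeR, adjusted p = 2.68e-05), with a count ratio of 77.4 and a counting interval of 13.1 to 3136. It was lower than in adult mCD by a log2 fold change of -6.24 (SE 0.24, adjusted p = 3.14e-10). Over day 20 the log2 fold change was 3.08 with all libraries, 2.26 without the first and 4.85 without the second library of day 20. That second library also held 29 counts of Umod and 22 of Slc12a1, both of the thick ascending limb, against 5 and 2 in the first.

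Per length, Trpv6 stood far above Trpv5 in CD organoids and close to it in adult mCD. Trpv6 stood at 42.9 and 35.8 times Trpv5 in the 2 CD organoid libraries and at 0.909 and 0.740 times Trpv5 in adult mCD, counted per kilobase of merged exons. With the deposited lengths these ratios were 49.4 and 41.3, and 1.05 and 0.852. Trpv6 was thus the prevailing channel transcript in CD organoids on both scales, and in adult mCD both channels were at similar levels. Calb1 per length was 10.3 and 9.34 times Trpv6 in CD organoids and 8.11 and 9.44 times in adult mCD, whereas it was 18.1 to 94.4 times Trpv6 in the libraries of days 5, 10 and 20. No stretch of 50 exon bases is shared between Trpv5 and Trpv6, in the gene models of GENCODE M21.

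**Figure D3:**
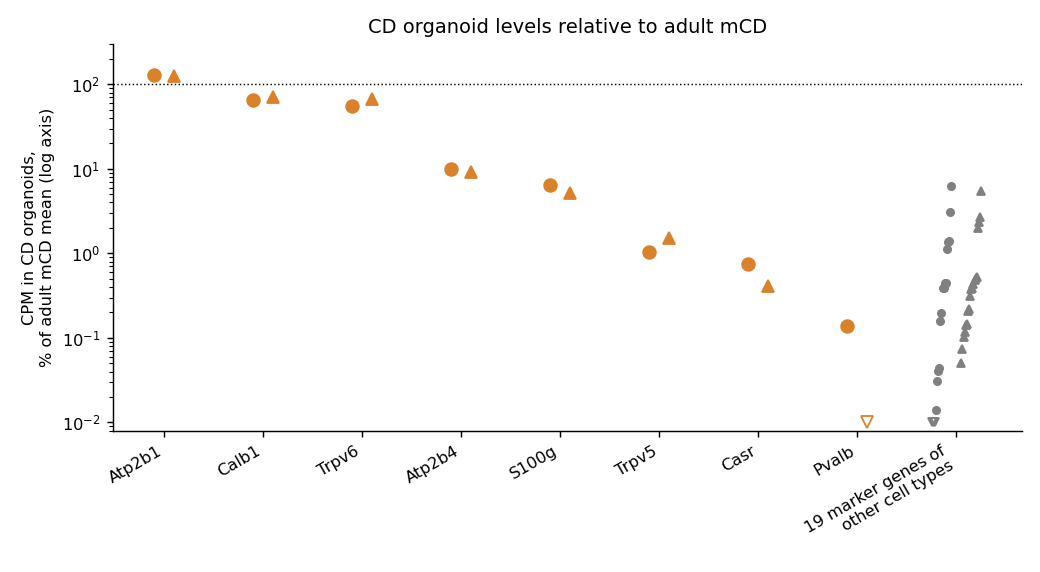
Level in CD organoids as a percentage of the adult mCD mean, on a log axis, for the 8 genes and for 19 marker genes of the thick ascending limb, proximal tubule and endothelium; circles are the first and triangles the second CD organoid library, and open symbols at the bottom are values of 0. Atp2b1, Calb1 and Trpv6 lie at 54.9% or above, whereas Trpv5 and Casr lie within the range of the 19 markers in both libraries. Pvalb lies within it in the first library and at 0, below it, in the second. S100g lies above it in the first library and within it in the second.

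For low genes, the levels of other segments' markers were set beside these shares. In the 2 CD organoid libraries, 19 markers of the thick ascending limb, proximal tubule and endothelium had a median of 0.199% and 0.382% of their adult mCD level, with a range of 0 to 6.29% and 0.0509 to 5.53%. Trpv5 was at 1.05% and 1.53%, above 14 and 15 of the 19 markers, and Casr was at 0.738% and 0.416%, above 14 and 11 of them. S100g, at 6.49% and 5.24%, was above 19 and 18, and Trpv6 and Calb1 were above all 19 in both libraries. The part of a common low level of such transcripts in the values of Trpv5 and Casr was not tested.

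Of the exit pumps, Atp2b1, the widely expressed isoform, was not called in the 3 comparisons of CD organoids, and Atp2b4 was called lower in all 3. Atp2b1 was at 167 and 146 CPM at day 5, 182 and 221 CPM at day 10, 297 and 293 CPM at day 20, 184 and 181 CPM in CD organoids, and 147 and 143 CPM in adult mCD. The libraries of CD organoids and day 10 overlapped, as did those of day 5 and adult mCD, and day 20 lay above the rest. Between CD organoids and day 10 the log2 fold change was -0.14 (SE 0.09, edgeR, adjusted p = 0.230), and it was 0.021 without the second library of day 10. Against day 20 it was -0.69 (SE 0.09, adjusted p = 3.01e-05) and against adult mCD 0.34 (SE 0.09, adjusted p = 0.00828), both under 4-fold.

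Atp2b4 was at 29.6 and 35.4 CPM at day 5, 84.8 and 52.8 CPM at day 10, 13.2 and 15.6 CPM at day 20, 3.49 and 3.29 CPM in CD organoids and 33.8 and 37.0 CPM in adult mCD. Day 5 and adult mCD overlapped, and the other groups did not overlap their neighbours. CD organoids were lower than day 10 by 19.98-fold (log2 fold change -4.32, SE 0.24, edgeR, adjusted p = 3.79e-09), than adult mCD by 10.3-fold (log2 fold change -3.36, SE 0.24, adjusted p = 6.02e-08) and than day 20 by 4.19-fold (log2 fold change -2.07, SE 0.26, adjusted p = 1.59e-05). The last value was close to the 4-fold limit and was -1.94 without the second library of day 20. Atp2b4 was also the 1 gene of 8 called between days 20 and 10, where 3.39% of all genes were called (log2 fold change -2.25, SE 0.19, adjusted p = 2.02e-06), and the call was lost without the first library of day 10, at a log2 fold change of -1.85.

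Over the 4 genes of the pump family, Atp2b1 made up nearly all pump transcripts in CD organoids. Its share of the summed deposited RPKM was 98.8% in both CD organoid libraries, 73.2% and 72.5% in adult mCD, and 76.4% and 86.3% at day 10. Counted per merged exon length, the shares were 97.7% in both CD organoid libraries, 58.2% and 57.2% in adult mCD, and 62.3% and 76.3% at day 10. The rest of the adult mCD transcripts came from Atp2b2, an isoform best known from neurons and hair cells, with 16.1% and 15.7% of the deposited RPKM, and from Atp2b4, with 10.6% and 11.9%. Atp2b2 had 697 and 638 counts in adult mCD and 0 and 1 count in CD organoids (ratio 1362, counting interval 244 to 53829, edgeR, adjusted p = 2.57e-11), and 2 to 5 counts in each UB library. The deposited length of a gene sums the exons of all its transcripts, which is 37393 bases for Atp2b4 against 12248 bases of merged exons, so that the shares depend on the scale.

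**Figure D4:**
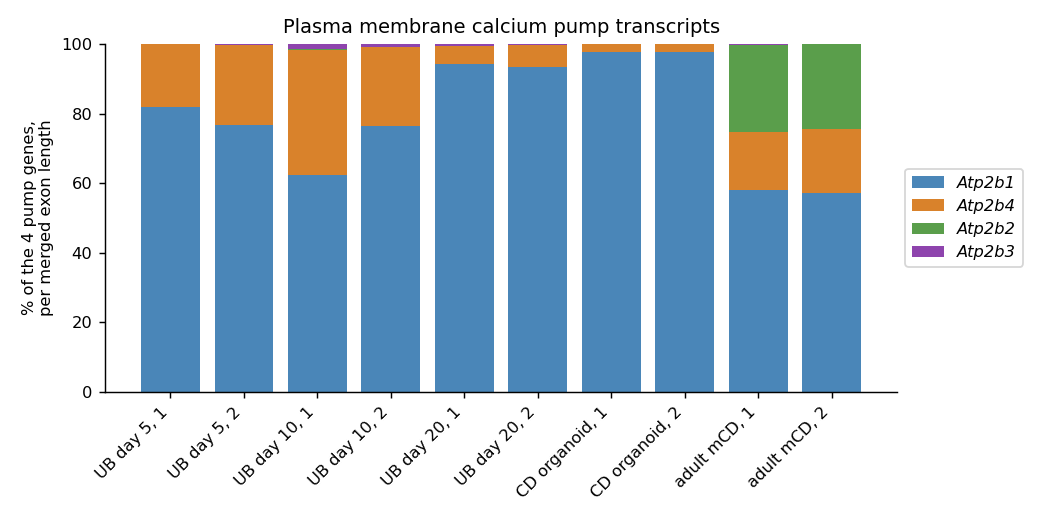
Share of each of the 4 plasma membrane calcium pump genes, in percent of their summed level per kilobase of merged exons, in the 10 libraries. Atp2b1 fills 97.7% of both bars of CD organoids, Atp2b4 reaches 36.0% in the first day 10 library, and Atp2b2 is visible only in adult mCD.

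Casr was low in all organoids. The UB libraries held 15 and 5 counts (day 5), 1 and 2 counts (day 10) and 0 and 2 counts (day 20), and CD organoids held 14 and 7 counts (0.997 and 0.561 CPM), while adult mCD held 1784 and 1725 counts (134 and 136 CPM). CD organoids and day 5 overlapped, and days 10 and 20 overlapped. The gene was called higher in CD organoids than at day 10 (log2 fold change 2.93, SE 0.73, edgeR, adjusted p = 0.000835), with a count ratio of 13.9 and a counting interval of 4.15 to 72.8. The call was lost without the first CD organoid library, at a log2 fold change of 2.49 and an adjusted p of 0.0239. Over day 20, where the log2 fold change was 2.85, it was lost without the first CD organoid library (2.40) and without the first library of day 20 (2.18). Against adult mCD the log2 fold change was -7.32 (SE 0.25, adjusted p = 3.21e-11). Slc12a1, the defining transporter of the thick ascending limb, was at 1277 and 1343 CPM in adult mCD and at 0.570 and 2.73 CPM (8 and 34 counts) in CD organoids, and its part in the difference was not tested.

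Both channels, both calbindins, Pvalb and Casr were called higher in adult mCD than at day 10. These were 6 of 8 genes, where 22.5% of all genes were called and 13.4% were called higher. Against day 20 the same genes without Calb1 were called, 5 of 8, where 19.2% of all genes were called and 12.3% were called higher. The adult libraries had 16.0-fold the Trpv6 of day 10 and 29.8-fold that of day 20. From day 5 to day 10 of UB culture none of the 8 genes was called, against 3.4% of all genes. DESeq2 called 1, Casr, with a log2 fold change of -2.88 (adjusted p = 0.00546). At an adjusted p of 0.05 without a fold limit, edgeR called 5, where it called 3855 of all 24410 genes higher and 4115 lower.

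The other calcium handling genes were read from 6 lists with 54 genes, 53 of which passed the filter on low counts. Between CD organoids and day 10, 6 were called higher and 8 lower, which is 26.4% of the 53 against 10.7% of all genes, with a median log2 fold change of 0.41 against -0.15. Between CD organoids and day 20, 4 were called higher and 4 lower (15.1% against 9.46%). Between CD organoids and adult mCD, 1 was called higher and 17 lower (34.0% against 14.3%), with a median log2 fold change of -0.75 against 0.00. Calb2, the calbindin relative calretinin, did not pass the filter, with 0 and 3 counts in CD organoids and none in the other 8 libraries.

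**Figure D5:**
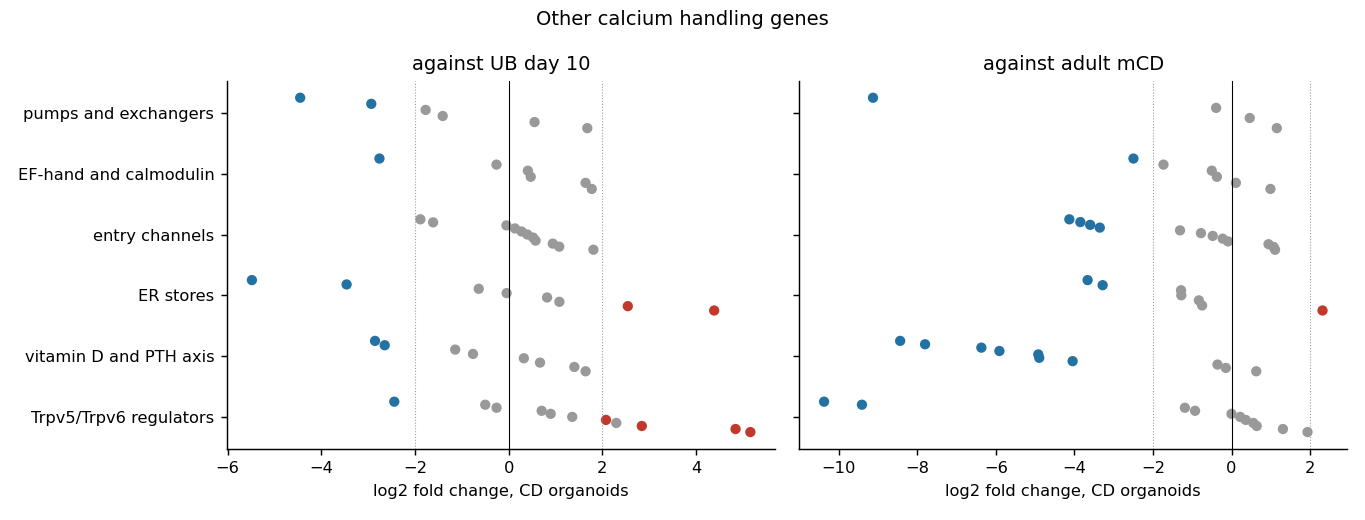
Log2 fold change of CD organoids against UB organoids of day 10 and against adult mCD for the genes of 6 lists of calcium handling genes; each point is a gene, red and blue points were called higher and lower, and dotted lines mark a 4-fold change. Genes at or under 3 counts in both groups are not drawn. Against adult mCD, 7 of the 10 genes of the vitamin D and PTH axis lie to the left of the 4-fold line.

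Slc8a1, the sodium-calcium exchanger that shares calcium exit with the pumps, was at 101 and 118 CPM at day 10, 374 and 329 CPM in CD organoids and 442 and 481 CPM in adult mCD. Its log2 fold change over day 10 was 1.68 (SE 0.10, edgeR, adjusted p = 5.69e-09), under 4-fold, and against adult mCD it was -0.39 (SE 0.09, adjusted p = 0.00290). Of the other pumps and exchangers, Slc8a2 was called lower than at day 10 (1.71 and 1.28 CPM against 11.8 and 11.96 CPM, log2 fold change -2.93, adjusted p = 3.20e-08), as was Atp2b3, with no count in CD organoids and 37 and 22 counts at day 10. No gene of this list of 6 was called higher than at day 10 and 2 were called lower, where 4.96% and 5.71% of all genes were.

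Among the calmodulins and other EF-hand proteins, 1 of 6 was called lower than at day 10 and none higher, where 5.71% of all genes were called lower, which for 6 genes is no result about the list. This was S100a6, at 7.62 and 5.21 CPM in CD organoids against 52.5 and 35.3 CPM (log2 fold change -2.76, SE 0.27, edgeR, adjusted p = 1.25e-06). It was lower than in adult mCD too, with a log2 fold change of -2.50. None of the 12 other entry channels was called between CD organoids and day 10, where 10.7% of all genes were. Against adult mCD 4 were called lower, where 9.84% of all genes were. Among these 4, Trpm6, the magnesium channel of the distal convoluted tubule, was at 1.14 and 1.20 CPM against 21.3 and 21.5 CPM (log2 fold change -4.13, SE 0.31, adjusted p = 8.44e-08).

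Of the 8 genes of the endoplasmic reticulum stores, 2 were called higher and 2 lower than at day 10, where 4.96% and 5.71% of all genes were. Itpr2, an inositol trisphosphate receptor, was at 201 and 176 CPM in CD organoids against 34.3 and 30.5 CPM (log2 fold change 2.54, SE 0.10, edgeR, adjusted p = 1.18e-10). Atp2a3, a calcium pump of the reticulum, was at 6.62 and 7.46 CPM against 0.119 and 0.438 CPM (log2 fold change 4.39, SE 0.34, adjusted p = 6.84e-08) and at 90.8 and 88.5 CPM in adult mCD. The ryanodine receptors Ryr1 and Ryr2 were lower, at 0 and 2 counts against 168 and 133 and at 0 and 3 counts against 53 and 41. Itpr3 was the 1 calcium gene of the lists called higher in CD organoids than in adult mCD, at 349.9 and 321 CPM against 68.9 and 65.6 CPM (log2 fold change 2.32, SE 0.12, adjusted p = 1.64e-09).

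The receptors and enzymes of the vitamin D and PTH axis were largely low in CD organoids, and 7 of 10 were called lower than in adult mCD with a median log2 fold change of -4.91 over the list, where 9.84% of all genes were called lower with a median of 0.00. Rxra, the partner of the vitamin D receptor, differed in the other direction, with a mean of 192 CPM in CD organoids against 124 CPM (log2 fold change 0.63, SE 0.08, edgeR, adjusted p = 1.81e-05), under 4-fold. Vdr, the vitamin D receptor, was at 13.0 and 11.95 CPM in CD organoids, 10.3 and 9.63 CPM at day 10 and 203 and 211 CPM in adult mCD. It thus differed from adult mCD by a log2 fold change of -4.05 (SE 0.10, edgeR, adjusted p = 3.73e-12) and from day 10 by 0.32 (SE 0.11, adjusted p = 0.0254). Cyp24a1, the vitamin D 24-hydroxylase and a standard readout of the receptor, had 0 and 1 count in CD organoids against 214 and 316 counts in adult mCD. Kl, the coreceptor klotho, was at 3.42 and 3.21 CPM against 1118 and 1218 CPM (log2 fold change -8.44, SE 0.16, adjusted p = 6.03e-13), and Pth1r, the PTH receptor, at 3.06 and 2.33 CPM against 215 and 242 CPM (log2 fold change -6.37, SE 0.25, adjusted p = 1.26e-10). The summed markers of the proximal tubule, which also expresses Kl, Pth1r and Cyp24a1, differed in the same direction, and their part was not tested.

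Of the 11 listed regulators of Trpv5 and Trpv6, 4 were called higher and 1 lower than at day 10, where 4.96% and 5.71% of all genes were. Sgk1, the aldosterone-induced kinase, was at 169.8 and 178 CPM in CD organoids against 4.32 and 5.29 CPM (log2 fold change 5.16, SE 0.12, edgeR, adjusted p = 2.08e-12). Rgs2, a regulator of G protein signalling, was at 107 and 86.7 CPM against 14.9 and 12.2 CPM (log2 fold change 2.84, SE 0.13, adjusted p = 6.63e-10), and Nedd4l, a ubiquitin ligase, at 523 and 521 CPM against 121 and 127 CPM (log2 fold change 2.08, SE 0.09, adjusted p = 3.02e-10). The fourth, Umod, had 9 and 30 counts against none, where adult mCD had 26503 and 27015. Against adult mCD, Umod and Klk1, the tissue kallikrein of the connecting tubule, were called lower, where 9.84% of all genes were. Klk1 had 3 and 10 counts in CD organoids and 4294 and 5324 in adult mCD (ratio 755, counting interval 441 to 1418).

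The genes whose profile was most like that of Calb1 were none of these. Over the 10 libraries and among 10538 genes with a mean of at least 10 CPM, the highest Pearson correlations of log2(CPM + 1) with Calb1 were those of Foxred1 (0.993), Pcmtd1 (0.990), Nedd9 (0.989), Golga5 (0.985) and Cox15 (0.985). Leaving out 1 library at a time kept 3 to 5 of these 5 among the leading 5. Of the genes examined here, r was 0.904 for S100g, 0.857 for Trpv6, 0.792 for Trpv5, 0.737 for Casr and 0.675 for Pvalb, where 4.71%, 10.0%, 17.0%, 21.7% and 26.7% of the ranked genes had a higher r. It was negative for Atp2b1 (-0.37) and Atp2b4 (-0.51). Of the other calcium genes, r exceeded 0.9 for Trpv4 (0.935), Itpr2 (0.916) and Rgs2 (0.904). The correlation does not measure the size of a change. Foxred1 was at 27.8 and 28.2 CPM at day 10 and at 41.9 and 43.3 CPM in CD organoids. Nedd9 was at 68.2 and 60.9 CPM and at 224 and 217 CPM, where Calb1 rose 5.09-fold. The 10 libraries fall into 5 groups of 2 of the same condition, and the values are given as a description.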

How the data were processed

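The deposited table holds 3 values a library for 39273 mouse genes. The counts are whole numbers. The study's methods name Partek Flow, with trimming, alignment to mm10 with STAR and counting on GENCODE M24 by the E/M model of Partek. The submitters' processing notes list FastQC 0.11.8, cutadapt 2.5, Trimmomatic 0.36, STAR, edgeR 3.28.1 and the build GRCm38.p6. Which of these routes made the deposited counts was not settled here. The RPKM values were deposited by the authors and divide by a length that sums the exons of all transcripts. The third is a signal the authors deposited as TMM values, which was not used in tests. The study's methods name a stranded kit and the labels another, and the strand setting of the counting is not given in the sources used here. S100g lies within Ctps2 on the opposite strand, with no exon base shared.

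For tests, edgeR 4.0.16 (R 4.3.3) was run on the counts by its quasi-likelihood method, with TMM scaling (factors 0.792 to 1.12), the prior count set to 1 and p-values adjusted by Benjamini and Hochberg. One fit held the means of all 5 groups over 24410 genes, those whose 10 libraries summed to 10 counts or more. The thresholds for a call, an adjusted p no higher than 0.01 with a fold above 4, are those of the study. All 8 genes passed the filter, and all would with the adult libraries left out, Pvalb with 15, Trpv5 with 44 and Casr with 46 counts in the other 8 libraries. With 2 libraries a group, the spread rests on all libraries, with a common dispersion of 0.00831. The 7 comparisons share libraries. CPM used TMM-scaled totals. A fold against a group with few counts depends on the prior count, so that the ratio of summed counts per scaled total is given with a 95% exact binomial interval. Positions, merged exons and gene models were read from GENCODE M21 (GRCm38), which holds 99.7% of the identifiers; the deposited lengths of 7 of the 8 genes equal the exon sums of M21 plus the number of exons, and those of Trpv6 do not. The test was checked on simulated data. Python 3.11.15, pandas 2.3.3 and matplotlib 3.10.9 made the summaries and figures.

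The genes and lists were chosen with earlier results of these data known. Named are the 8 genes, up to 4 called genes a list, Slc8a1, Vdr, Pth1r, Cyp24a1, Kl, Calb2, marker genes and the 5 genes most like Calb1; Itpr3, Nedd4l, Trpv4 and Rxra were named after their values were seen. Alternatives changed the scaling, tool (DESeq2 1.42.0), filter, prior count, threshold, libraries fitted and a replicate block; merged exon lengths were added after seeing the data.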

Additional observations from a re-analysis of the deposited data

How the results depend on the processing

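Of 649 fold changes of the 8 genes under an alternative setting, 618 kept their direction and their side of the threshold. Reversed were Atp2b1 between CD organoids and day 10 (-0.26 to 0.021 with 1 day 10 library left out, above 0 without the second) and, between days 20 and 10, Trpv5 (-0.44 to 2.14) and S100g (-0.38 to 1.99) with 1 day 20 library left out, below 0 without the second; none of the reversed values was called. With a prior count of 5, only 3 of the 7 genes were called between CD organoids and day 20, since Casr fell to 1.67 and Atp2b4 to -1.999 on the log2 scale; Casr over day 10 was then 1.70. Calb1 against adult mCD was -0.16 with library totals in place of TMM factors, against -0.56, and its level was then 84.5% and 94.2% of the adult mean. From day 5 to day 10, 1 of the 8 genes was called by DESeq2 and with no filter, and with 1 library left out 0 to 1 were; between days 20 and 10 it was 0 to 1. With the threshold loosened to an adjusted p of 0.05 without a fold limit, 8 genes were called for adult mCD over day 20, 5 for day 10 over day 5 and 4 for day 20 over day 10. Of all 24410 genes, that threshold called 7140 higher and 6621 lower for adult mCD over day 20. It called 3855 and 4115 for day 10 over day 5, and 3180 and 3903 for day 20 over day 10.

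For the other calcium genes, the looser threshold called 42, 32 and 43 genes for CD organoids against day 10, day 20 and adult mCD, 45 and 49 for adult mCD against days 10 and 20, 28 for day 10 over day 5 and 29 for day 20 over day 10. Of all 24410 genes, that threshold called 5384 higher and 6146 lower for CD organoids against day 10. These numbers were 5122 and 5189 against day 20, and 5800 and 6370 against adult mCD. For adult mCD against day 10 they were 7340 and 7740, and the other comparisons are given above. Between days 10 and 5, 4 of the other calcium genes were called with a prior count of 5 and with only both groups in the fit, in place of 7. With 1 library left out, 4 to 7 were. Between days 20 and 10, 2 were called with only both groups in the fit, in place of 5, and 2 to 7 with 1 library left out. No shared deviation of same-numbered libraries was seen, with correlations between -0.08 and 0.10, which cannot exclude that they were paired. With a replicate block 2584 in place of 2605 genes were called between CD organoids and day 10, and 5 of the 7 genes here, the number without it. The cause of these shifts was not tested, beyond the change in the setting itself.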
